A study of Mus musculus with 2 samples.

Results

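Dividing epithelial cells of the mouse mammary gland were examined in a single cell RNA sequencing experiment with 1 library from control mice (Ctrl) and 1 library from mice given clodronate liposomes (CL). A cell was counted as epithelial when the keratins Krt5, Krt14, Krt8 and Krt18 summed to at least 10 UMIs (unique molecular identifiers, each standing for 1 captured transcript) and the leukocyte gene Ptprc had none. It was counted as dividing when the 12 division genes Mki67, Top2a, Cdk1, Ccnb1, Ccnb2, Birc5, Ube2c, Cenpf, Cenpe, Rrm2, Tyms and Pclaf summed to at least 15 UMIs. This gave 175 dividing cells beside 12965 other epithelial cells, among 15632 cells that passed the quality limits. The library labelled Ctrl held 112 dividing cells of 5540 epithelial cells, and the library labelled CL held 63 of 7600. The cells were thus chosen by measured values, their keratin, Ptprc and division gene UMIs, and their differences from the other epithelial cells are a description, given no test. Both groups were adult wild-type female mice, 9 to 10 weeks old per the labels and 8 to 10 weeks old per the protocol, and the strain behind these libraries was not given in the sources used here. Clodronate liposomes, lipid vesicles whose drug kills the phagocytes that swallow them, were injected repeatedly into the peritoneum before the glands were taken. Digested glands were sorted to remove CD31+ endothelial cells and TER119+ red cells, so epithelial, stromal and immune cells entered the droplets together, and how many mice were pooled per library was not given.

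The mammary epithelium is a bilayer of outer basal cells, which contract to expel milk, and inner luminal cells, which are either hormone-responsive, with receptors for oestrogen, progesterone and prolactin, or secretory, the lineage that makes milk. A cell that enters division first loads replication origins and copies its DNA in S phase, under transcription factors of the E2F family. It then builds a spindle and segregates its chromosomes in mitosis, which is driven by the kinase Cdk1 bound to a B cyclin. Genes of the replication machinery and genes of mitosis therefore peak at different times of the cycle, and promoters of many mitotic genes carry an element called the CHR, at which the DREAM complex and B-Myb with FoxM1 act.

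The libraries held 118743318 UMIs (Ctrl) and 155765480 UMIs (CL). Expression is given as CPM, the UMIs of a gene per 1000000 UMIs of the summed cells, ratios are on the log2 scale, and ranges in brackets are exact 95% intervals that cover counting error only. Each group is 1 library, so differences could not be checked against replicates and carry no p-value. In summed counts, fewer cells with a transcript and less of it per cell cannot be told apart. Macrophage genes ran against the label of the CL library in the only check made of it here: C1qa, C1qb, C1qc, Cd68 and Lyz2, chosen with earlier results of these data known, summed to 67.7 CPM (66.1 to 69.4) over the filtered cells of Ctrl and to 211 CPM (208 to 213) over those of CL. The libraries are therefore named by their labels throughout. No matrix column was shared by dividing cells of both libraries, although 22 were shared among all candidate cells.

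Markers of division set the chosen cells apart in both libraries, as the choice required. Mki67, the classical proliferation antigen, had a UMI in 79.5% of dividing cells in Ctrl and 81.0% in CL, against 2.19% and 1.67% of the other epithelial cells. Top2a, which untangles DNA before segregation, was found in 90.2% and 92.1% of dividing cells, against 4.57% and 5.19% of the others. Rrm2, a subunit of the enzyme that makes deoxynucleotides, was found in 73.2% and 87.3%, against 2.41% and 1.94%. Dividing cells were also deeper, with a median of 30259 UMIs in Ctrl and 38004 in CL against 12984.5 and 12423 in the others, and part of this follows from a rule that counts UMIs. The median dividing cell held 44 UMIs of the 12 genes in Ctrl (range 15 to 518) and 52 in CL (range 15 to 240). Just inside the limit, with 15 to 19 UMIs, lay 17 and 7 cells, and just outside it, with 10 to 14 UMIs, lay 14 and 12 cells. The cells just outside already carried the replication genes of the list used below at 1774 and 1799 CPM, close to the 1525 and 2249 CPM of those just inside, whereas cells with none of the 12 genes held 299.96 and 314 CPM. Mitosis genes were at 1076 and 886 CPM just outside and 1137 and 1201 CPM just inside, against 4230.3 and 2951 CPM over all dividing cells, so cells at the edge held fewer mitosis than replication transcripts.

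Dividing cells made up a larger share of the epithelium in the library labelled Ctrl. The share was 2.02% (1.67 to 2.43) in Ctrl and 0.829% (0.638 to 1.06) in CL, a log2 ratio of CL to Ctrl of -1.29 (-1.76 to -0.83). When every cell was thinned to 5423 UMIs and at least 5 UMIs of the 12 genes were asked for, 95 of 5113 cells (1.86%) passed in Ctrl and 43 of 6840 (0.629%) in CL, a log2 ratio of -1.56 (-2.12 to -1.03). Thinning left out 427 and 760 shallower cells, and the 5 other combinations of depth and limit gave ratios from -1.57 to -0.88, the latter (-1.28 to -0.48) at 7615 UMIs with at least 3 UMIs of the 12 genes. At a minimum of 30 UMIs the shares were 1.39% and 0.592%, and at 50 UMIs 0.884% and 0.421%. Outside the epithelial definition the order was the opposite, with 6 of 757 filtered cells (0.793%) reaching 15 UMIs in Ctrl and 45 of 1735 (2.59%) in CL. Whether sorting, tissue digestion or the number of pooled mice bears on these shares was not tested.

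**Figure D1:**
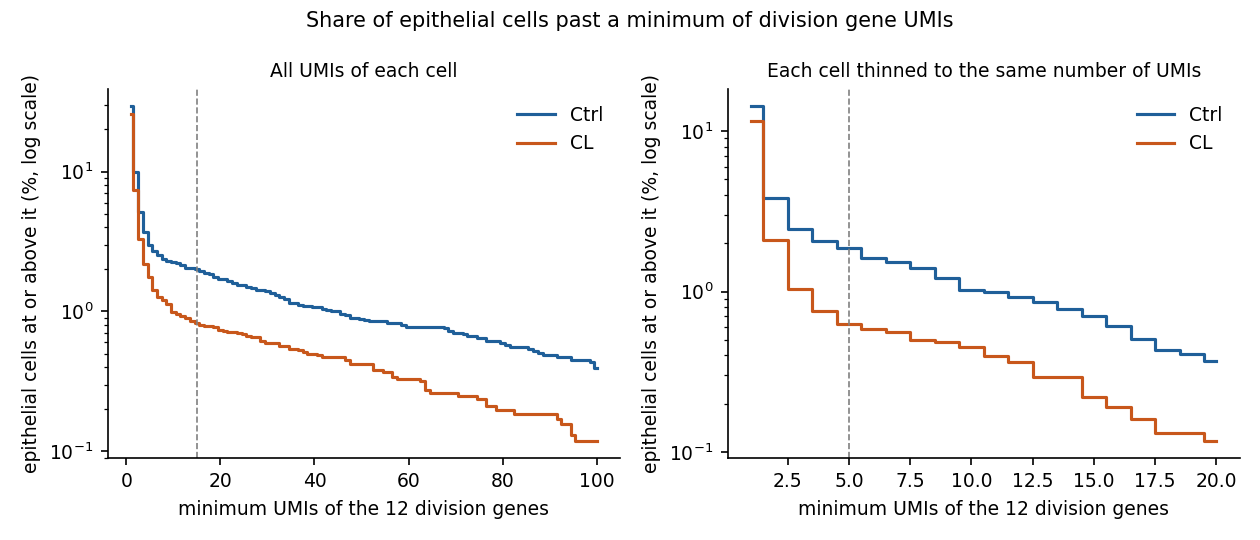
Share of epithelial cells (%, log scale) whose 12 division genes reach the minimum number of UMIs on the horizontal axis, for each library, with all UMIs (left) and after thinning every cell to 5423 UMIs (right). Dashed lines mark the limits of 15 and 5 UMIs, where the shares are 2.02% and 0.829%, and 1.86% and 0.629%, and the Ctrl line lies above the CL line at every minimum drawn.

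Most dividing cells were hormone-responsive luminal cells, and fewer were secretory, above all in the library labelled CL. Each cell was assigned by scores of basal, hormone-responsive and secretory marker lists, and called mixed when 2 scores were close. In Ctrl, 60 of 112 dividing cells were hormone-responsive (53.6%, 43.9 to 63.0), 29 secretory (25.9%, 18.1 to 35.0), 11 basal (9.82%) and 12 mixed (10.7%). In CL, 40 of 63 were hormone-responsive (63.5%, 50.4 to 75.3), 6 secretory (9.52%, 3.58 to 19.6), 4 basal (6.35%) and 13 mixed (20.6%). Secretory cells were thus under-represented among dividing cells relative to the other epithelial cells, of which they formed 48.6% and 51.9%, and hormone-responsive cells, at 39.1% and 35.8% of the others, were over-represented in both libraries. So were mixed cells, at 4.99% and 6.70% of the others. Basal cells formed 7.39% and 5.63% of the others. The rule counts UMIs, and the lineages differed in depth. The other cells of Ctrl had medians of 20237 (hormone-responsive), 27613 (mixed), 9785.5 (secretory) and 8252 UMIs (basal). Thinned to 5423 UMIs, with at least 5 UMIs of the 12 genes, 2.45% (Ctrl) and 1.05% (CL) of hormone-responsive cells passed. So did 1.07% and 0.114% of secretory, 3.01% and 1.19% of basal and 3.08% and 1.82% of mixed cells.

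Within each lineage the dividing share was lower in CL, with an interval clear of equality for both luminal lineages. Of secretory cells, 29 of 2665 were dividing in Ctrl (1.09%, 0.730 to 1.56) and 6 of 3916 in CL (0.153%, 0.0562 to 0.333), a log2 ratio of -2.83 (-4.39 to -1.53). Of hormone-responsive cells, 60 of 2180 were dividing in Ctrl (2.75%) and 40 of 2738 in CL (1.46%), a log2 ratio of -0.91 (-1.53 to -0.31). Of basal cells, 11 of 412 were dividing in Ctrl (2.67%) and 4 of 428 in CL (0.935%), a log2 ratio of -1.51 whose interval (-3.62 to 0.24) held 0 and which became -0.78 with at most 5% mitochondrial UMIs and -1.81 without cells of at least 20 fibroblast UMIs. Whether these ratios differ between lineages was not tested. After thinning to 5423 UMIs the log2 ratios were -3.23 (-5.21 to -1.70) for secretory cells, 4 of which passed in CL, and -1.22 (-1.95 to -0.52) for hormone-responsive cells. For basal cells it was -1.34 with an interval (-3.84 to 0.62) that held 0, from 10 of 332 cells in Ctrl and 3 of 252 in CL. Thinned to a depth set by the basal cells themselves (2469 UMIs), 7 of 403 basal cells passed in Ctrl and 0 of 385 in CL, which allows a share of up to 0.954%. Without the Ptprc condition the secretory ratio was -1.99. Scrublet marked 6 dividing cells of Ctrl and 1 of CL as doublets, and 3 of the 12 and 0 of the 13 mixed dividing cells.

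**Figure D2:**
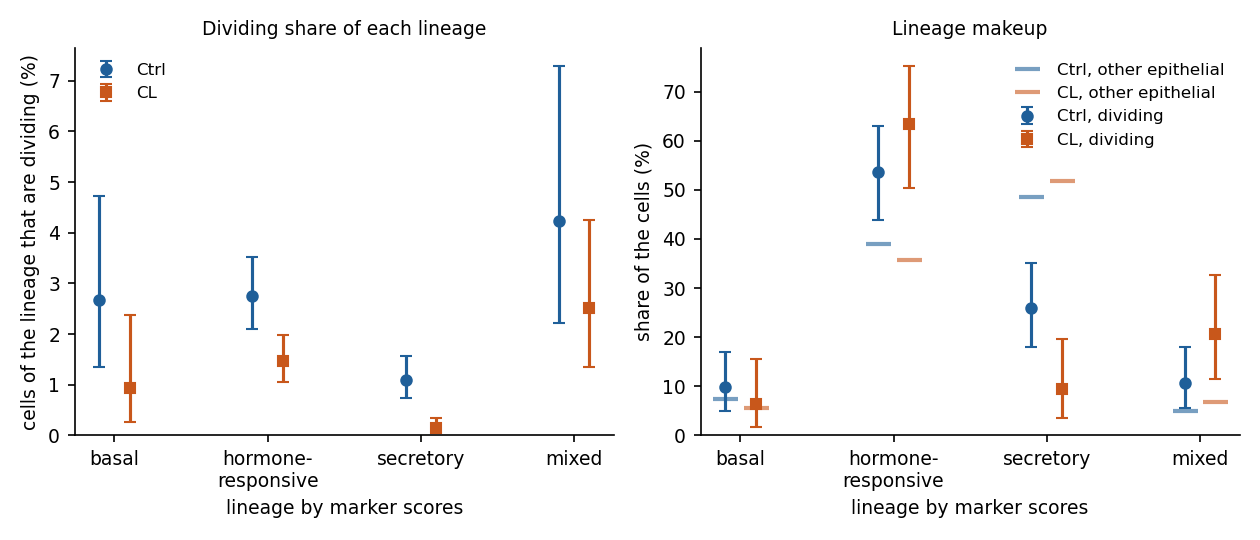
Left, the percentage of each lineage's cells that were dividing in each library; right, the lineage makeup of the dividing cells (points) beside that of the other epithelial cells (dashes). Bars are exact 95% binomial intervals; the secretory share is 1.09% in Ctrl and 0.153% in CL, and hormone-responsive cells form 53.6% and 63.5% of dividing cells.

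The 12 division genes were compared between the dividing cells of the libraries, and 10 of them were lower in CL. Their sum of at least 15 UMIs chose the cells in both libraries and bears on the mix of phases that entered, so their values are a description. Cdk1, the kinase of mitotic entry, was at 204 CPM in dividing cells of Ctrl and 151 CPM in CL (-0.44, -0.62 to -0.25), against 1.20 and 1.09 CPM in the other epithelial cells. Ccnb1, a B cyclin that activates it, was at 59.0 and 22.6 CPM (-1.38, -1.83 to -0.95), and Ccnb2, the related B cyclin, at 129.6 and 53.1 CPM (-1.29, -1.58 to -1.0). On GRCm38 with the GENCODE M21 annotation, Cdk1 lies at chr10:69335146-69352938 and Ccnb1 at chr13:100778650-100786570, both on the minus strand. Both cyclins were past 2-fold lower in the dividing cells of CL, and Cdk1 was not. Ccnb1 had a UMI in 58 of 112 dividing cells in Ctrl (51.8%) and in 22 of 63 in CL (34.9%). Ube2c, the ubiquitin-conjugating enzyme with which the anaphase-promoting complex destroys cyclins, was at 302 and 105 CPM (-1.52, -1.72 to -1.33), the largest difference of the 12. The centromere proteins Cenpf (-1.38, -1.64 to -1.12) and Cenpe (-1.14, -1.5 to -0.79), both of which act at kinetochores, were also past 2-fold lower in CL. Top2a (-0.28), Birc5, the survivin subunit of the chromosomal passenger complex (-0.26), and Mki67 (-0.62) lay lower by less. Of the 3 genes of DNA synthesis, Rrm2 was higher in CL, Tyms nearly level and Pclaf somewhat lower. Rrm2 was at 113 CPM in Ctrl and 164 CPM in CL (0.53, 0.33 to 0.73), Tyms, which makes thymidylate, at 185 and 191 CPM (0.05, -0.12 to 0.22), and Pclaf, a partner of PCNA, at 278 and 235 CPM (-0.24, -0.39 to -0.09). In all, 5 of the 12 were past 2-fold lower in CL and none was past 2-fold higher. Nothing is read from this count, since these genes chose the cells. Of the 3131 genes tested in that comparison, 0.767% were lower and 0.735% higher (those reaching 50 CPM and 50 UMIs in 1 library or the other), where a call needed 2-fold and an interval clear of equality.

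Promoters of 6 genes are shown as examples of the letters known from cell cycle control, chosen after their motifs were seen: 3 genes of mitosis and 3 subunits of the MCM helicase, which opens DNA for replication. Each is the 170 bases (a length also set with the motif positions known) before the RefSeq start on GRCm38.p6, written 5′ to 3′ on the gene's strand. Capitals mark 3 motifs searched on both strands: the CHR (TTTGAA, or TTCAAA on the other strand), the CCAAT box (CCAAT or ATTGG) and E2F sites (TTTGGCGC, TTTCCCGC, TTTCGCGC or TTTGCCGC, or their reverse complements). Adjoining E2F matches overlap in Mcm5 and Mcm6.
Cdk1, chr10:69352913-69353082, minus strand: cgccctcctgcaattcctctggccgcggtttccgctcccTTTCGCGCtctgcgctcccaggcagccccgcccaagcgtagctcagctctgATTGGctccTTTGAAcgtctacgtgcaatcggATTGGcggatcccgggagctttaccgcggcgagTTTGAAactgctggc
Ube2c, chr2:164769759-164769928, plus strand: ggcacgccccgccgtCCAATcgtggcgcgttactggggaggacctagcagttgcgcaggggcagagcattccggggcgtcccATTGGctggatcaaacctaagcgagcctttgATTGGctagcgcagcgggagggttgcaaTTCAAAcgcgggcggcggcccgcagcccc
Cdc20, chr4:118437344-118437513, minus strand: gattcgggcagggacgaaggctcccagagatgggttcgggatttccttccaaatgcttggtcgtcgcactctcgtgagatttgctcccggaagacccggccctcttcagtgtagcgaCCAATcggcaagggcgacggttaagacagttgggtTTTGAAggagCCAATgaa
Mcm5, chr8:75109339-75109508, plus strand: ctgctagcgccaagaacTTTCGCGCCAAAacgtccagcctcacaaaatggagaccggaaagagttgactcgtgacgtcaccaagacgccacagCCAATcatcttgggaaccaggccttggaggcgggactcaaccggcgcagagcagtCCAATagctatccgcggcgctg
Mcm6, chr1:128359706-128359875, minus strand: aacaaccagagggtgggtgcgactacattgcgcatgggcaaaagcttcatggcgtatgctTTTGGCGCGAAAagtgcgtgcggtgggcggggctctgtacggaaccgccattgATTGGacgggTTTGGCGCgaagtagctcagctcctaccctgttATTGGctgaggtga
Mcm7, chr5:138171884-138172053, minus strand: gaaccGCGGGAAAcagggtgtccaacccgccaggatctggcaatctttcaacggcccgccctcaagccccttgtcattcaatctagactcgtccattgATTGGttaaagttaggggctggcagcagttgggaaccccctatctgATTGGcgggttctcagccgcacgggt

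In these stretches the mitotic genes carried the CHR close to the start, 15 to 10 bases before it in Cdk1 (with another 71 to 66 bases before it), 29 to 24 bases before it in Ube2c and 18 to 13 bases before it in Cdc20. The Cdk1 stretch also held an E2F match, 131 to 124 bases before the start. The 3 MCM promoters held no CHR and between 1 and 3 E2F matches each, the nearest lying 47 to 40 bases before the start of Mcm6. The promoter of Mcm2, another subunit that is not shown, went the other way. It held a CHR 70 bases before the start and no E2F match. Every promoter shown also held at least 2 CCAAT boxes. Of the 12 division genes, which include Cdk1 and Ube2c, 6 held the CHR in windows of 300 bases, and Ccnb1, Birc5 and Cenpe were among those that did not. Over the same windows (250 before and 50 after the start, 1 per gene), 18.1% of 27025 mouse promoters held the CHR, compared with 35 of the 49 mitosis list promoters found (71.4%) and 3 of the 19 replication list promoters found (15.8%). E2F letters showed the reverse, in 10 of 19 replication promoters (52.6%) and 5 of 49 mitosis promoters (10.2%), against 2.32% of all promoters. CCAAT boxes were found in 14 of 19 and 34 of 49, against 37.9% of all. Within 50 bases either side of the start, a window chosen after the positions were seen, the CHR was held by 31 of 49 mitosis promoters (63.3%), 1 of 19 replication promoters (5.26%) and 4.92% of all. A match is a description of the letters and not a bound site.

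Counting the 12 genes that chose the cells, 351 genes were at least 2-fold higher in dividing than in other epithelial cells in both libraries, 5.83% of 6022 tested (those reaching 20 CPM and 20 UMIs, in each library, in dividing or in other cells), and 75 were at least 2-fold lower, 1.25%. The cells were chosen in this same contrast, and cell cycle genes mostly reached the minimum through the dividing cells, so the counts per list describe the cells and support nothing by themselves. With the other cells weighted to the lineage mix of the dividing cells, 320 of the 351 and 15 of the 75 stayed past 2-fold, and 30 genes in all were lower. A minimum of 100 CPM left 94 higher and 34 lower genes. Scaling by TMM would shift all log2 ratios of dividing to other cells by -0.08 in Ctrl and -0.11 in CL.

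The replication machinery was higher as a whole. All 21 tested genes of the 25 listed for replication licensing and the fork were past 2-fold, and Mcm10, Cdc6, Gins1 and Dscc1 missed the minimum. Their summed expression was 1952 CPM in dividing cells of Ctrl and 2389 CPM in CL, log2 ratios to the other cells of 2.57 and 2.73. Mcm5 was at 97.3 against 5.17 CPM in Ctrl and 113 against 8.05 CPM in CL (dividing against other cells, log2 4.24 and 3.81). Mcm6, another subunit of the helicase, was at 208 against 45.5 CPM and 215 against 45.8 CPM (2.19 and 2.23). Pcna, the sliding clamp of DNA polymerases, was at 368 against 108 CPM and 429 against 113 CPM (1.77 and 1.93). The steepest tested members were Cdc45 (5.07 and 4.41), which activates the MCM helicase, the polymerase subunit Pole (4.82 and 4.76) and Clspn, a mediator of the replication checkpoint (4.63 and 4.57). The ratios of the tested members thus differed widely, down to 1.58 and 1.91 for Cdt1, which loads the helicase.

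Supply and packaging of DNA followed with more exceptions. For nucleotide supply, 7 of 10 tested genes were past 2-fold in both libraries, led by thymidine kinase Tk1 at 83.0 against 2.95 CPM and 128 against 3.53 CPM (4.82 and 5.17). The purine enzymes Impdh2, Gart and Paics were not past 2-fold in both, with 0.95 and 0.74 for Impdh2 and 0.83 and 1.05 for Paics. For chromatin assembly and DNA methylation, 12 of 14 were past 2-fold, the exceptions being the histone chaperone Nasp and the histone mRNA binder Slbp (0.91 and 1.09). Uhrf1, which guides maintenance methylation to new DNA, was at 109 against 2.85 CPM and 142 against 3.85 CPM (5.26 and 5.21), whereas the methyltransferase Dnmt1 differed by 1.57 and 1.42. The histone variant H2afz was found in all 112 and 63 dividing cells, at 2495 and 2422 CPM.

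Mitosis genes were higher in dividing cells too. Of 59 listed genes of the kinetochore and checkpoint, of spindle motors and kinases, and of cytokinesis, condensins and mitotic exit, 45 of 46 tested were past 2-fold, and their summed log2 ratios were 3.55 in Ctrl and 2.98 in CL. The spindle list was the steepest of the 3, at 4.96 and 4.61. In it Aurkb, the kinase that corrects wrong attachments of microtubules, was at 71.9 against 0.370 CPM in Ctrl and 59.2 against 0.176 CPM in CL, and Hmmr, a spindle assembly factor, at 96.8 against 0.324 CPM and 51.4 against 0.0703 CPM. Tpx2, which activates Aurora A on the spindle, differed by 6.54 and 5.83. Among kinetochore genes, Cdca8, a passenger complex subunit, was at 139 against 1.87 CPM and 95 against 1.76 CPM, and Spc24, part of the microtubule-binding Ndc80 complex, had a UMI in 109 of 112 and 60 of 63 dividing cells. For cytokinesis, Prc1, which bundles microtubules of the midzone, was at 172 against 3.41 CPM and 116 against 3.38 CPM, and Smc2, a condensin core subunit, at 173 against 5.92 CPM and 153 against 7.22 CPM. The exception was Pttg1, the securin that holds separase in check, at 38.3 against 49.4 CPM and 43.6 against 60.7 CPM, the only tested member below the other cells.

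**Figure D3:**
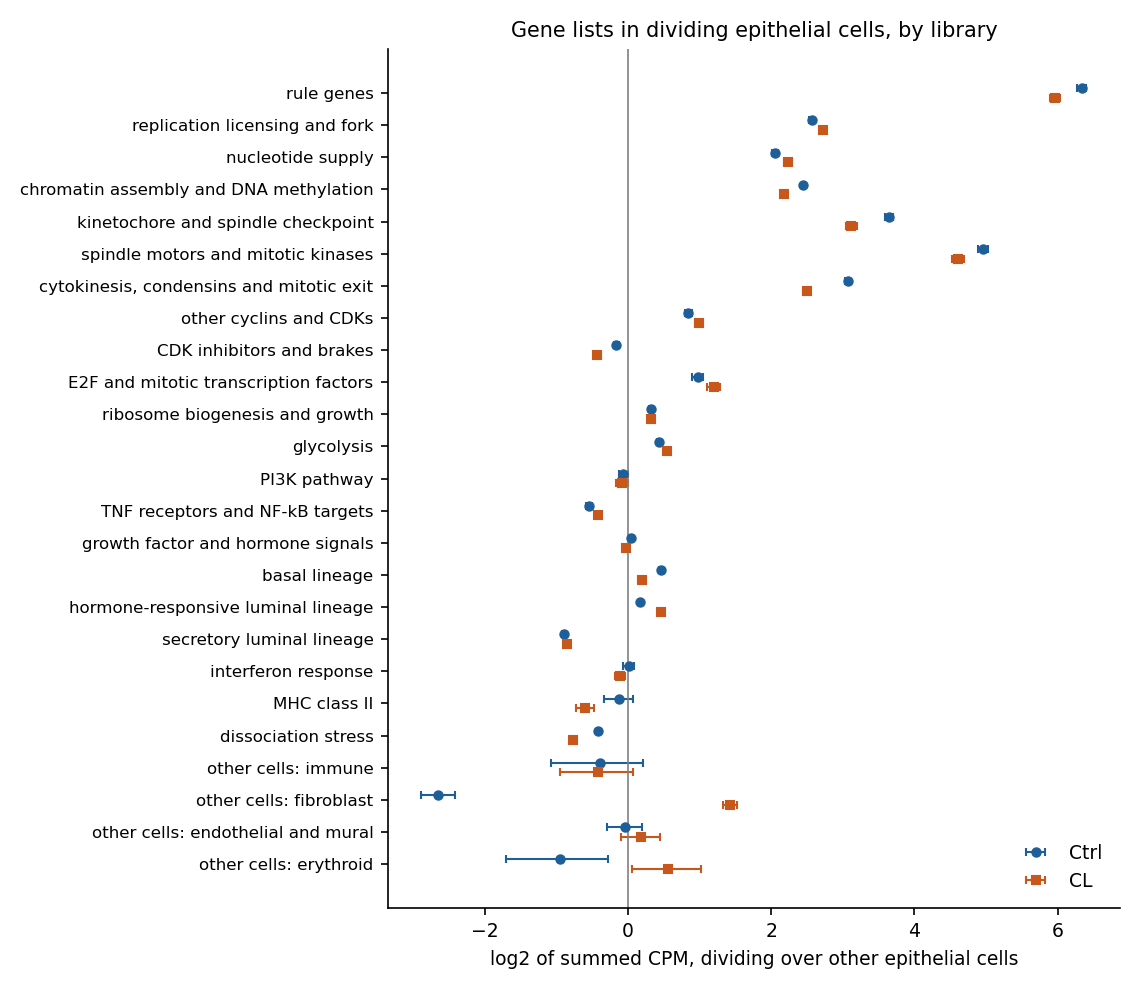
Log2 ratio of summed CPM, dividing over other epithelial cells of the same library, for each gene list; bars are exact 95% intervals of counts. The replication, nucleotide, chromatin and 3 mitosis lists lie above 2 in both libraries, growth and signalling lists lie between -0.54 and 0.54, and the fibroblast list lies at -2.65 in Ctrl and 1.43 in CL.

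Regulators of the cycle were less uniform. Of the other cyclins and CDKs, 4 of 8 tested genes were past 2-fold: Ccna2, the cyclin of S and G2 phase, at 59.2 against 0.347 CPM and 39.5 against 0.220 CPM, Ccne1, the cyclin of S phase entry, at 27.8 against 1.80 CPM and 48.1 against 1.65 CPM, Cdk2 (1.54 and 1.61) and Cdk4 (1.17 and 1.5). Cyclin D1, Ccnd1, which couples growth signals to the cycle, differed little over all lineages, at 354 against 261 CPM and 440.2 against 292 CPM (0.44 and 0.59). Within secretory cells the Ccnd1 ratio was 1.15 in Ctrl and 0.31 in CL, the latter from 6 dividing cells. Within basal cells it was 0.61 (-0.01 to 1.18) in Ctrl and 1.88 (1.06 to 2.61) in CL. The basal CL value rests on 17 UMIs in 3 of 4 dividing cells, and whether the ratio differs between lineages was not tested. Among CDK inhibitors and other brakes, 4 of 12 were past 2-fold higher, namely Cdkn2c (1.87 and 2.23) and Cdkn2d (1.91 and 2.35), which bind CDK4 and CDK6, the phosphatase Cdkn3 (5.85 and 5.39) and the pocket protein Rbl1 (3.16 and 3.28). The p53 target Cdkn1a lay at 274 against 372 CPM and 289 against 433 CPM, and the antiproliferative gene Btg1 at 426 against 652 CPM and 369 against 659 CPM, neither past 2-fold. Of E2F and mitotic transcription factors, 6 of 7 were past 2-fold higher, with E2f1 at 46.3 against 2.0 CPM and 60.1 against 2.28 CPM and E2f8, an E2F that represses, at 28.0 against 0.728 CPM and 36.6 against 0.448 CPM. Myc, a growth-promoting factor, went the other way and was past 2-fold lower in dividing cells of both libraries, at 54.7 against 122 CPM and 46.1 against 115 CPM, and on the lineage-matched scale at -0.99 and -0.96, just short of 2-fold.

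Growth and signalling lists held few genes past 2-fold. Over all genes tested 5.83% were higher and 1.25% lower, so counts near 0 in lists of this size are close to the background and say nothing particular about them. None of 12 genes of ribosome biogenesis and 14 of glycolysis was past 2-fold in both libraries, although both lists were somewhat higher in dividing cells (0.32 and 0.33, and 0.43 and 0.54). Npm1, a nucleolar chaperone, was at 1625 against 1045 CPM and 1614 against 971 CPM, and Pgam1, of lower glycolysis, differed by 0.90 and 1.30. The PI3K pathway, which carries growth factor signals, held 0 of 9 genes past 2-fold and a summed ratio of -0.06 and -0.09, with Pik3ca at 27.0 against 30 CPM and 19.3 against 31 CPM and Akt1 at 109 against 85.8 CPM and 116 against 90.7 CPM. Of TNF receptors and NF-kB targets, 0 of 12 were past 2-fold, with a summed ratio of -0.54 and -0.42. The TNF receptor Tnfrsf1a was at 68.7 against 57.9 CPM and 57.6 against 60.7 CPM, and Nfkbia, the NF-kB inhibitor that NF-kB itself induces, at 868 against 1409.9 CPM and 1126 against 1461 CPM. Of growth factors and receptors, 1 of 10 was past 2-fold, the EGF receptor ligand Hbegf, lower in dividing cells at 265 against 594 CPM and 196 against 601 CPM. Immediate early genes, which tissue dissociation induces, were lower in dividing cells, with Fos at 3081 against 4282 CPM and 2116 against 3968 CPM and Jun at 2610.2 against 3274 CPM and 1800.3 against 3461 CPM, and Hspa1a alone past 2-fold. Their part in the lower level of signalling targets was not tested.

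The balance between replication and mitosis transcripts differed between the dividing cells of the libraries. In Ctrl the replication list held 7383 UMIs and the 3 mitosis lists 15999, a log2 ratio of -1.12, and in CL they held 5807 and 7172, a log2 ratio of -0.30. The ratios differed by 0.81 (0.76 to 0.86). Replication genes were at 1952 CPM in Ctrl and 2389 CPM in CL, and mitosis genes at 4230.3 and 2951 CPM, so the mitosis side moved more. Per cell the ratio ranged from -4.54 to 1.66 in Ctrl (median -0.95) and from -3.58 to 1.56 in CL (median -0.13), so the cells of the libraries overlapped almost fully. Replication transcripts outnumbered mitosis transcripts in 31 of 112 cells in Ctrl (27.7%, 19.6 to 36.9) and in 27 of 63 in CL (42.9%, 30.5 to 56.0), intervals that overlap. A minimum UMI count of the division genes chose these cells and bears on the mix of phases that entered, so the difference is a description. Dividing cells were deeper in CL (median 38004 UMIs, against 30259 in Ctrl). Cells just inside the limit held more replication than mitosis transcripts, at 1525 and 1137 CPM in Ctrl and 2249 and 1201 CPM in CL. Averaging the cells' CPM instead of summing UMIs gave a difference of 0.57, and cells chosen after thinning gave 0.75 (0.69 to 0.80). How much of the difference comes from the choice was not tested.

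The lineages did not all show this difference. Among hormone-responsive cells the ratio was -1.25 in Ctrl and -0.23 in CL, a difference of 1.02 (0.96 to 1.08), and replication was ahead in 14 of 60 and 19 of 40 cells. Secretory dividing cells gave the opposite sign, with -0.52 in Ctrl and -0.77 in CL, a difference of -0.24 (-0.41 to -0.08) that rests on 6 CL cells. Basal cells gave 1.07, from 11 and 4 cells, and mixed cells 0.29. The 4 basal dividing cells of CL also held 379 of the 888 fibroblast UMIs of its dividing cells, 366 of them in 1 cell, and the part of this in the basal values was not tested.

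**Figure D4:**
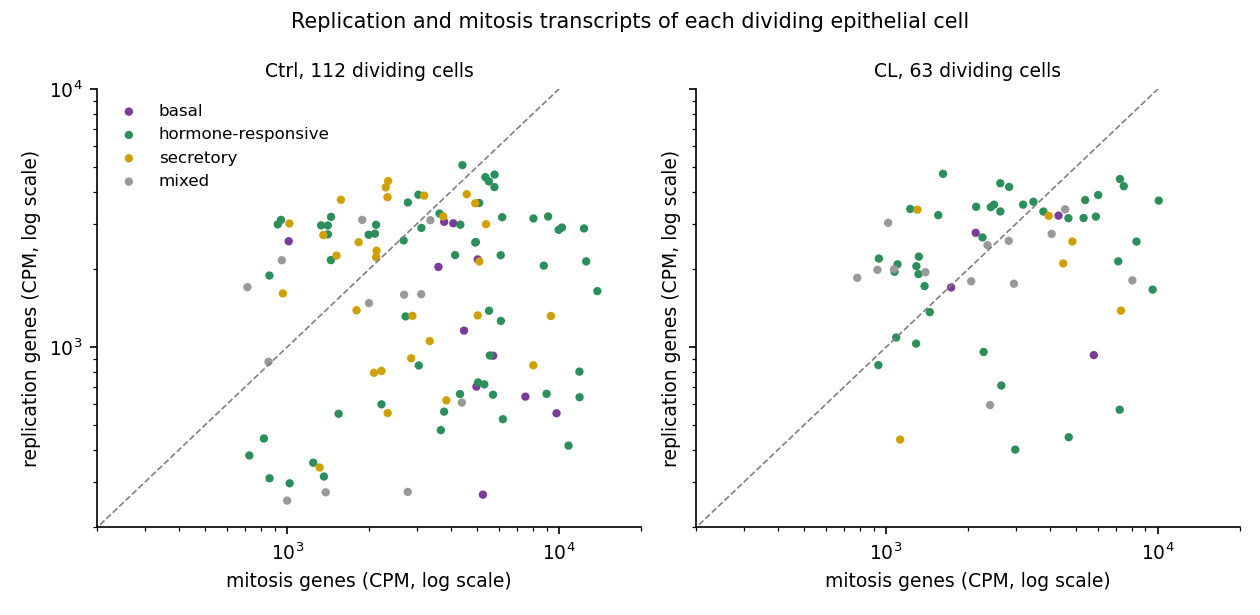
Each point is 1 dividing cell, with its mitosis list CPM on the horizontal and its replication list CPM on the vertical axis (both log scale), coloured by lineage; the dashed line marks equal CPM. Cells above the line number 31 of 112 in Ctrl and 27 of 63 in CL.

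Read gene by gene, the same UMIs gave the same split between the dividing cells of the libraries. The genes are carried by the same cells as the sums above, so their counts restate the balance and add no support to it. Of 3131 genes tested, 23 were past 2-fold higher in CL (0.735%) and 24 lower (0.767%), and the median log2 ratio was -0.02. All 19 tested replication genes lay above 0, none past 2-fold, with a median of 0.26 and a summed ratio of 0.29 (0.24 to 0.34), against 0.13 in the other epithelial cells. Rpa2, a single-strand DNA binder, led them at 57.9 CPM in Ctrl and 93.4 CPM in CL (0.69, 0.42 to 0.96), followed by the clamp loader subunit Rfc3 (0.68), Gins2 of the helicase complex (0.67) and the licensing factor Cdt1 (0.63). Of 25 tested mitosis genes, 24 lay below 0 and 2 were past 2-fold, with a summed ratio of -0.52 (-0.56 to -0.48), against 0.05 in the other cells. These 2 were Cenpa, the histone that marks centromeres, at 185 and 56.0 CPM (-1.73, -2.0 to -1.46), and Cdc20, the activator of the anaphase-promoting complex, at 86.7 and 37.8 CPM (-1.20, -1.55 to -0.86). The condensin subunit Ncapg2 was the tested mitosis gene above 0 (0.30, -0.01 to 0.61). Plk1, a kinase of mitotic entry and exit, missed the minimum of 50 CPM, at 31.7 and 9.05 CPM (-1.81, -2.54 to -1.15). Outside these lists, Cdkn3 (-1.22) and the chromatin proteins Hmgb2 (-0.62) and Hmgn2 (-0.58) lay lower in CL, whereas Ccne1 (0.79, 0.40 to 1.19) and Tk1 (0.62, 0.39 to 0.85) lay higher.

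**Figure D5:**
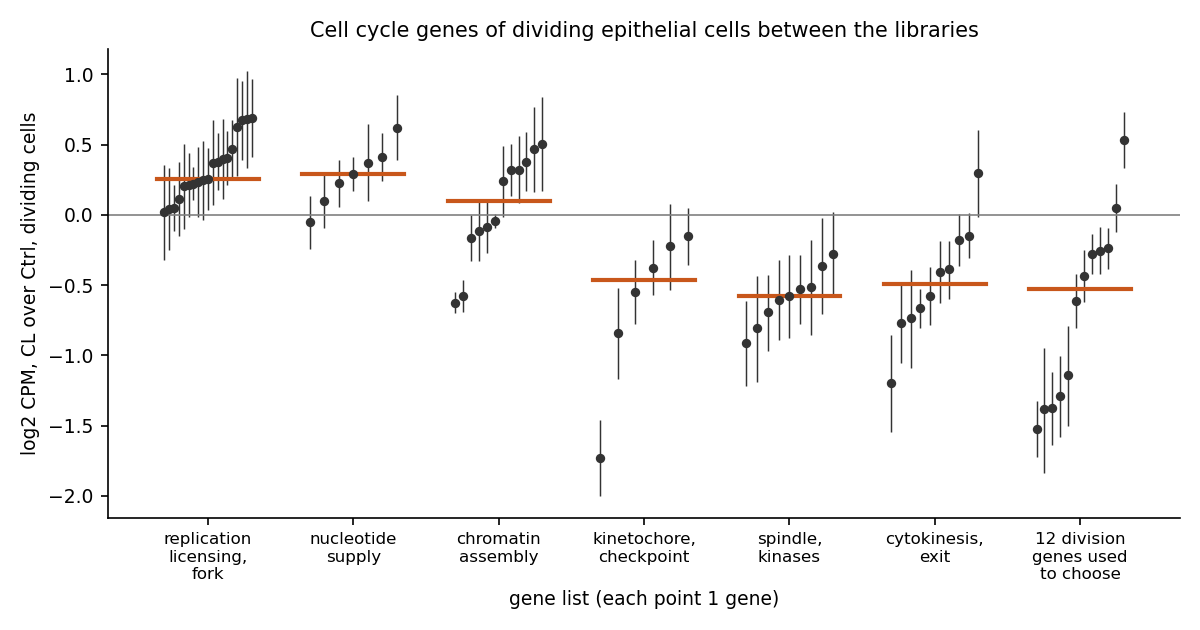
Log2 ratio of CPM, CL over Ctrl, in dividing cells for each tested gene of 7 lists; points are genes, vertical bars exact 95% intervals of counts and orange lines list medians. All 19 replication genes lie above 0 and 24 of 25 genes of the 3 mitosis lists lie below it.

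Genes outside the cycle also separated the dividing cells of the libraries. The interferon response was higher in CL, with 4 of 6 tested genes past 2-fold and a summed ratio of 1.21 (1.11 to 1.31), but the other epithelial cells gave 1.33 in the same comparison. Gbp2, an interferon-induced GTPase, was at 17.2 CPM in dividing cells of Ctrl and 214 CPM in CL. The 7 MHC class II genes had a summed ratio of 2.06 (1.82 to 2.30), against 2.52 in the other cells. Of these 7, 1 reached the minimum, the invariant chain Cd74, at 6.61 and 74.9 CPM (3.5, 2.89 to 4.17), against 3.66 in the other cells. The highest ratios beyond the lists belonged to Hp, which binds haemoglobin (2.40), the chemokine Cxcl17 (2.14), the fibrinogen chains Fgg (1.99) and Fgb (1.77), and Clca3a2 (1.80). Hp was at 62.4 CPM in dividing cells of Ctrl and 329 CPM in CL, while the other cells held 219 and 211 CPM and empty droplets 265 and 261 CPM. Cxcl17 was at 12.7 and 56.0 CPM in dividing cells, below the 34.1 and 61.2 CPM of empty droplets, and so was Apoe in CL, at 188 against 395 CPM. Fgg was at 124 and 492 CPM in dividing cells, below the 392 and 638 CPM of empty droplets. For Fgb, 1 cell gave 25.9% of the UMIs in CL, and empty droplets held 244 and 446 CPM. The lowest ratios were those of the alarmin Il33 (-2.46), Rbp7, a retinol binder (-1.69), Golim4 (-1.62), the apolipoprotein Apoe (-1.51) and Crym (-1.22). In the other epithelial cells Fgb (1.07), Crym (-1.23) and Il33 (-1.31, below the minimum) were past 2-fold the same way. The rest of these highest and lowest genes were not. Il33 rested on 23 UMIs in 5 dividing cells of CL, 1 of which gave 43.5% of them. Rbp7 was at 50.5 CPM in dividing and 1.95 CPM in other cells of Ctrl, and 15.6 and 1.63 CPM in CL, where 1 cell gave 47.4% of its UMIs. Of the 47 genes past 2-fold in dividing cells, 7 also reached the minimum and were past 2-fold the same way in the other epithelial cells, 5 higher and 2 lower, and a minimum of 200 CPM left 12.

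Lineage genes were compared between dividing and other cells of the same lineage. Hormone-responsive dividing cells held their lineage list at the level of other hormone-responsive cells (summed log2 ratios -0.01 in Ctrl, -0.09 in CL). The score of this list also assigned the cells, so the sum is a description and cannot show whether identity was kept. Cells called mixed are left out of it, and they formed 10.7% (Ctrl) and 20.6% (CL) of dividing cells. Of the other epithelial cells they formed 4.99% and 6.70%. The members of the list moved apart. The prolactin receptor Prlr was at 1764 against 3198 CPM in Ctrl (-0.86, -0.90 to -0.81) and 1759 against 2567 CPM in CL (-0.54, -0.60 to -0.49). The progesterone receptor Pgr was at 99.4 against 176 CPM and 66.6 against 108 CPM (-0.82 and -0.69), and the oestrogen receptor Esr1 differed by -0.43 and -0.74. Wnt4, a paracrine target of progesterone, was also lower in dividing cells (-0.94 and -0.61). Cited1, a transcriptional coregulator of hormone-responsive cells, was higher instead, at 1896 against 901 CPM in Ctrl and 1709 against 1281 CPM in CL (1.07 and 0.42). The median dividing cell held Cited1 at 1784 CPM in Ctrl and 1472 CPM in CL, against 404 and 767 CPM in the median other hormone-responsive cell. Empty droplets held Cited1 at 1150.1 and 1372 CPM and Prlr at 1213 and 908 CPM, and the part of free RNA was not tested. Areg, the EGF family ligand downstream of oestrogen, differed in sign between the libraries (0.28 and -0.33), and Ccnd1 was higher in CL (-0.06 and 0.68).

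Secretory dividing cells held their lineage list at summed log2 ratios of -0.39 in Ctrl and -0.28 in CL to other secretory cells, and its members differed in sign. The list's score also assigned these cells, so this sum too is a description. Wfdc18, a whey acidic protein (0.12 and 0.06), and Tspan8 (0.03 and 0.18) were level or nearly so, the casein Csn3 was at -0.07 and 0.49, and the transcription factor Elf5 at 0.51 and -0.50. The aldehyde dehydrogenase Aldh1a3 differed from other secretory cells by -1.13 in Ctrl and -2.19 in CL, the milk fat globule protein Mfge8 by -1.48 and -0.94 and lactoferrin, Ltf, by -1.75 and -1.08, the CL values resting on 6 cells. Hbegf was lower there too (-1.31 and -1.20), and Cdk4 was higher (1.78 and 1.86). Over all lineages together the secretory list was at -0.89 and -0.84, with 3 of 10 tested genes past 2-fold lower (Aldh1a3, Mfge8 and the iron carrier Trf). Within secretory cells Trf was lower too (-0.98 in Ctrl and -0.41 in CL), as were Aldh1a3 and Mfge8. Weighting the other cells to the lineage mix of the dividing cells gave a list value of -0.35 in Ctrl, still lower, and turned the CL value to 0.13. The basal list, at 0.46 and 0.19, turned to -0.34 and -0.28 on the same scale, and the hormone-responsive list, at 0.17 and 0.46, to -0.05 and -0.01. In CL, hormone-responsive dividing cells held more secretory transcripts than other hormone-responsive cells (0.60), and in Ctrl fewer (-1.19), as sums that a few cells can carry. Csn3 went the other way in CL, at 68.1 against 105 CPM, and Ltf had a UMI in 15 of the 40 cells. Wfdc18 was at 389 against 244 CPM there in CL and 77.2 against 211 CPM in Ctrl, but the median cells of CL held 57.4 against 47.4 CPM, 1 cell gave 25.0% of its CL UMIs and empty droplets held 938 and 1245 CPM, and the part of free RNA in this was not tested.

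Among genes of no list, those highest in dividing cells were again mostly cycle genes, in the same contrast that chose the cells. By the smaller of the libraries' ratios they were Esco2, which acetylates cohesin (7.96 and 8.01), the mitotic kinase Pbk (7.31 and 8.12), the linker histone Hist1h1b (6.42 and 7.77), the core histones Hist1h2ap and Hist1h2ae, Slfn9, the microtubule destabiliser Stmn1, the centromere protein Cenpm and the formin Diaph3. Stmn1 was found in all 112 and 63 dividing cells, at 1231 against 33.1 CPM in Ctrl and 1098 against 35.4 CPM in CL. Replication-dependent histone genes have near-identical copies and transcripts that mostly lack a poly(A) tail, so their UMI counts are uncertain. The lowest were Chil1, Cck, Igfbp5, Gpc6, Cxcl2, Fam107b, Plet1, Bglap3, Csf3 and Rhoj. Igfbp5, a binder of insulin-like growth factors, was at 479 against 1394 CPM in Ctrl and 287 against 1048 CPM in CL. Plet1 was at 1127 against 3159 CPM and 1036 against 3568 CPM. With lineage-matched other cells only Chil1 stayed past 2-fold in both libraries (-1.59 in each), and the ratios became -0.94 and -0.82 for Plet1 and -1.48 and -0.46 for the peptide hormone gene Cck.

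Transcripts of other cell types were few in dividing cells except for fibroblast genes in CL. The 13 immune genes summed to 5.82 CPM in dividing cells of Ctrl and 14 CPM in CL, below the 7.65 and 18.6 CPM of the other epithelial cells, with Ptprc, which the choice barred, Cd3e and Nkg7 at 0 in both. The 9 endothelial and mural genes summed to 39.4 and 48.1 CPM, against 40.7 and 42.3 CPM. The 5 erythroid genes summed to 18 UMIs in Ctrl and 38 in CL, with the haem enzyme Alas2 at 0. The 9 fibroblast genes, which include the collagens Col1a1, Col1a2 and Col3a1, summed to 156 UMIs in Ctrl (41.2 CPM, with Dpt at 0) and 888 UMIs in CL (365 CPM), against 259 and 135 CPM in the other cells. In CL, 5 cells held 736 of the 888 UMIs. At least 20 fibroblast UMIs were held by 1 of 112 dividing cells in Ctrl and 8 of 63 in CL (12.7%), against 2.38% and 1.69% of the other cells. Without them the share of dividing cells gave -1.48 in place of -1.29, a direction fixed by the larger part of the CL dividing cells that this leaves out.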

How the data were processed

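The members and gene lists were chosen with earlier results of these data known. The authors deposited a matrix of UMI counts per gene and barcode for each library, made with Cell Ranger on mm10 (version 2.1.1 in the submitters' processing notes, version 4 in the file headers), not normalized. Because the barcode list did not index the matrix columns, the 7217 (Ctrl) and 10555 (CL) barcodes with the most UMIs were taken, as many as the list has lines. Cells needed at least 500 genes and at most 15% mitochondrial UMIs. Counts were summed over cells and given as CPM, with exact (Clopper-Pearson or conditional binomial) 95% intervals. Between dividing and other cells a gene was called when it was past 2-fold the same way in both libraries and reached 20 CPM and 20 UMIs in each. Between libraries it was called when past 2-fold with an interval clear of equality, at 50 CPM and 50 UMIs in the higher one. Lineage went to the highest marker score, or mixed when the second reached 0.7 of it. All listed genes could be named. Beyond them, the 10 highest and 10 lowest in dividing cells (same direction in both libraries, at least 50 CPM and 50 UMIs) and the 5 highest and 5 lowest between libraries were named, leaving out mitochondrial, ribosomal protein, haemoglobin, sex-linked and unnamed genes. Some genes that the rule names are not reported here. Doublets were marked with Scrublet and kept; its own threshold marked 1 cell in CL, so the Ctrl threshold of 0.197 served both, a choice made after seeing the data. Free RNA was read from droplets of 100 to 300 UMIs and not subtracted. Promoters came from RefSeq. Python 3.11.15, numpy 2.4.6, scipy 1.17.1, pandas 2.3.3, scanpy 1.11.5, matplotlib 3.10.9, R 4.3.3 and edgeR 4.0.16 (TMM factors only) were used, and the scripts were tested on simulated data.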

Additional observations from a re-analysis of the deposited data

Results flagged for a closer look

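Fibroblast genes lay on opposite sides in the libraries, but not under every alternative. Summed over the 9 genes, the log2 ratio of dividing to other epithelial cells was -2.65 in Ctrl and 1.43 in CL, where 5 cells held 736 of 888 UMIs. Over 4 alternatives it ran from -2.73 to -0.34 in Ctrl and from -0.36 to 1.61 in CL. The lowest CL value, without cells of at least 20 fibroblast UMIs, lay on the Ctrl side. The difference was not tested. The 5 erythroid genes also lay on opposite sides, with -0.94 in Ctrl and 0.56 in CL. They had 18 and 38 UMIs in dividing cells, of which 5 cells held 17 and 24. This difference was not tested either.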

How the results depend on the processing

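The share of dividing cells kept its direction, with log2 ratios of CL to Ctrl from -1.51 to -1.10 over the alternatives without thinning and from -1.57 to -0.88 over the 6 thinned settings. The difference in the replication to mitosis balance (0.81) was 0.92 with at most 5% mitochondrial UMIs, 0.73 without the Ptprc condition, 0.91 with at least 30 UMIs of the 12 genes, 0.57 as a mean of each cell's CPM and 0.75 with cells chosen after thinning. The 351 higher genes became 94 at a minimum of 100 CPM, where fewer genes are tested. The 75 lower genes became 134 as a mean of each cell's CPM, 34 at 100 CPM and 30 with the lineage mix. The 47 genes between libraries became 12 at 200 CPM. Signs turned with the lineage mix for the basal list (-0.34 in Ctrl, -0.28 in CL), the hormone-responsive list (-0.051 and -0.0081), growth factors in Ctrl (-0.040), and in CL the secretory (0.13) and interferon lists (0.15). They turned as a mean of each cell's CPM for basal (-0.016) and growth factor genes (-0.053) in Ctrl and, CL over Ctrl, for ribosome biogenesis (-0.014) and secretory genes (-0.40), and with TMM factors for growth factors in Ctrl (-0.047). Among lists whose interval held 0, growth factors in CL turned as a mean of each cell's CPM (0.0076), and the interferon list in Ctrl turned with the lineage mix (-0.053) and with TMM factors (-0.074). Without cells of at least 20 fibroblast UMIs the fibroblast list in CL was -0.36 over other cells and -0.62 over Ctrl. In Ctrl the fibroblast list over other cells (-2.65) ran from -2.73 to -0.34 across 4 alternatives. Beyond these constructions the cause was not tested. Alternatives on fibroblast UMIs and on thinned lineages and balance were added after seeing the data. No paired analysis was possible because each group has 1 library. Lineage values in CL are limited by the number of cells, since 6 secretory and 4 basal cells were dividing.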
